A study of Mus musculus with 4 samples.

Results

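The 38 genes described here encode the working parts of the lysosome: 16 acid hydrolases and activators, 7 membrane and lipid-transfer proteins, and 15 subunits of the V-ATPase. They were taken as a named list from a set of 21631 protein-coding genes, and all 38 were found in the gene table. A gene was called occupied where both replicates of a Deaf1 chromatin immunoprecipitation (ChIP-seq) had a peak summit within 1 kb of the same end of its RefSeq span. A span covers every RefSeq model of its gene, so transcription may begin or finish at the end in question.

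The study mapped Deaf1 on chromatin of C2C12 cells, an established mouse myoblast line that fuses into myotubes in culture. Its 4 samples are 2 Deaf1 ChIP libraries and 2 input libraries, and the labels name no genotype, treatment or time. The labels give myocytes as the cell type, the design text calls them myoblasts that had differentiated, and peak lists alone cannot check the stage. All cells were formaldehyde-fixed, the chromatin was cut by an enzymatic kit, and Deaf1 was pulled down with a Bethyl antibody, while the IgG named in the protocol has no sample here.

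Lysosomes break down proteins, lipids, glycans and nucleic acids delivered by endocytosis and autophagy, and muscle fibres depend on them to clear glycogen and worn organelles. The V-ATPase is a rotary proton pump: its V1 sector hydrolyses ATP in the cytosol and turns the membrane-bound V0 ring, which acidifies the lumen so that the hydrolases work. Many lysosomal genes are known to carry an E-box with the core CACGTG near their start, which TFEB and related factors bind, while Deaf1 binds DNA through a SAND domain that favours TTCG half-sites.

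Of the 38 genes, 35 (92.1%) were occupied, where 51.6% of all protein-coding genes were. The count was 15 of 16 (93.8%) for the hydrolases and activators, 6 of 7 (85.7%) for the membrane and lipid-transfer proteins, and 14 of 15 (93.3%) for the V-ATPase. Ctsl, Cln3 and Atp6v1f were the genes not occupied. The peaks were ordinary in height: the median fold enrichment, which is the caller's ratio of summit signal to local background, was 16.34 in replicate 1 and 13.58 in replicate 2. Over all 11164 occupied genes these medians were 16.38 and 15.17. The share occupied was thus above that of all genes and the fold was near theirs, and neither difference was tested.

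**Figure D1:**
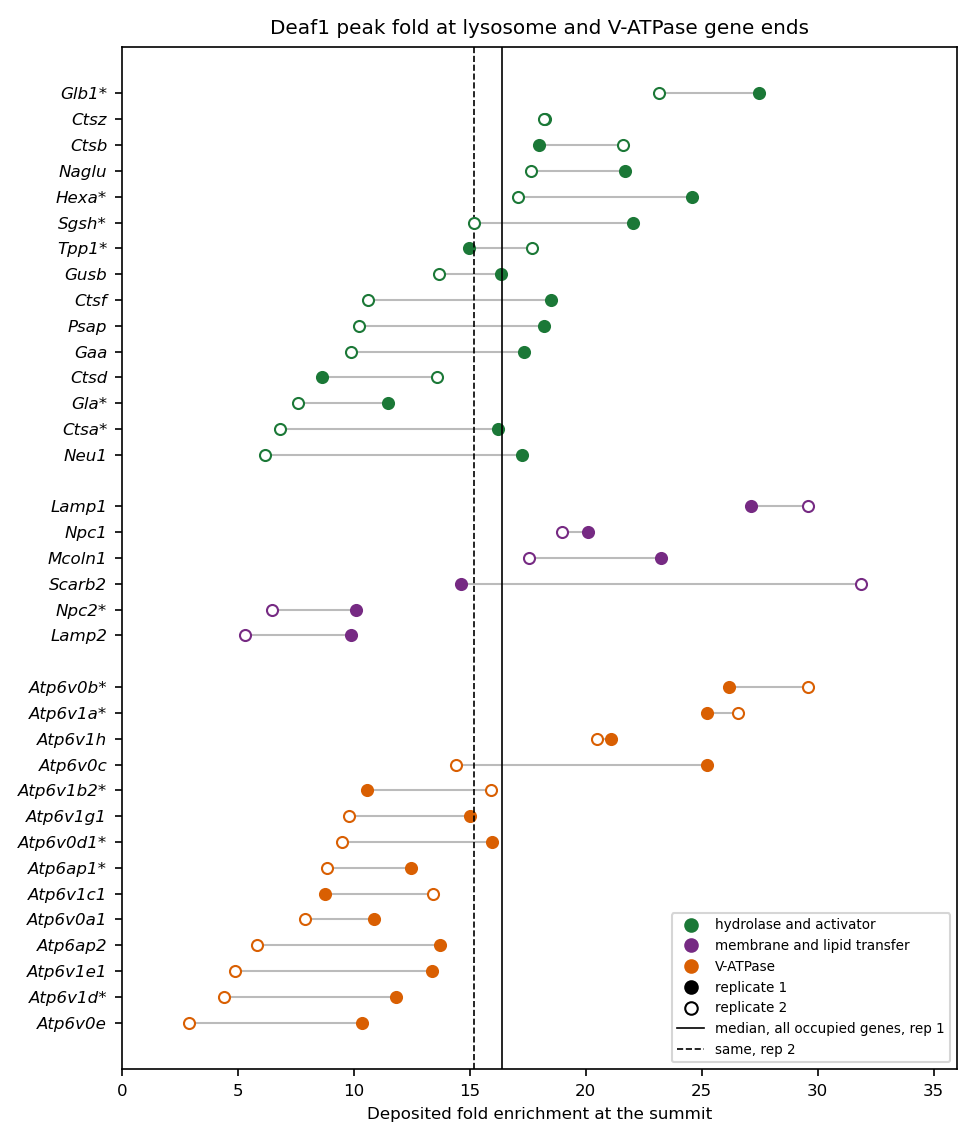
Deposited fold enrichment (horizontal axis) of the peak at each of the 35 occupied genes, filled points for replicate 1 and open points for replicate 2, coloured by role; vertical lines mark the medians of all occupied genes, 16.38 and 15.17. In each replicate 10 of the 14 V-ATPase genes are below the median, and an asterisk marks a peak within 1 kb of a second protein-coding gene.

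The sequences before 6 of the starts are shown, picked for the matches or folds given below. They do not stand for the whole set. CACGTG was in 12 of 32 promoters over these bases, and promoters with neither word, such as those of Ctsa, Hexa and Lamp2, are not shown. Each is 250 bases, read 5′ to 3′ along the gene and ending at the base before the RefSeq start, on GRCm38.p6. Capitals mark CACGTG, and TTCG or its reverse complement CGAA. Lamp1 (chr8:13158911-13159160, plus strand) had the most CACGTG matches, 4, and Mcoln1 (chr8:3500269-3500518, plus strand) had 2 of the longer form GTCACGTG. Glb1 (chr9:114400828-114401077, plus strand) had the highest replicate 1 fold. Ctsd (chr7:142387828-142388077, minus strand) had the lowest replicate 1 fold, with 2 matches of GTCACGTG and 1 of TTCG. Atp6v0b (chr4:117887330-117887579, minus strand) is a V-ATPase gene with 2 matches of CACGTG. Only 2 of 11 V-ATPase promoters held that word in these bases. Scarb2 (chr5:92505658-92505907, minus strand) had the highest replicate 2 fold with no CACGTG and 2 matches of TTCG.
Lamp1: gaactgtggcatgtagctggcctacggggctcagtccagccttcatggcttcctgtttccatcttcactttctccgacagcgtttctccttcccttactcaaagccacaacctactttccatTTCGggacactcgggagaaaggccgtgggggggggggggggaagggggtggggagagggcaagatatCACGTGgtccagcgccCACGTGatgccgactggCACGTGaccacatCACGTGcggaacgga
Mcoln1: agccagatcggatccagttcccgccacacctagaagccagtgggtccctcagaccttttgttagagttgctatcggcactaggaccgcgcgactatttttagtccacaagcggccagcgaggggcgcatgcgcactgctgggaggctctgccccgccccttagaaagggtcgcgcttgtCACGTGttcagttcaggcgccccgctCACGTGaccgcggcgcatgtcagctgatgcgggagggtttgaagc
Glb1: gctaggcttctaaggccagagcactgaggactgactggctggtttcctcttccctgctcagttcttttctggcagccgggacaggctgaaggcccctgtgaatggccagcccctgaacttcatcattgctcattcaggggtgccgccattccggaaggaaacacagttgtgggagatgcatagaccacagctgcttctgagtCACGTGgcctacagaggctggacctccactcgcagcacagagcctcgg
Ctsd: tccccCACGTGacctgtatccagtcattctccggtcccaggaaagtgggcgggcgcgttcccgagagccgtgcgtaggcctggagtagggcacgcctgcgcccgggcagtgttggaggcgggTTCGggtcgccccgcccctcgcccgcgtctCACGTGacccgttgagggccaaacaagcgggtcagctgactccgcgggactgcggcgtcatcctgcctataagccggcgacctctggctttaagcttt
Atp6v0b: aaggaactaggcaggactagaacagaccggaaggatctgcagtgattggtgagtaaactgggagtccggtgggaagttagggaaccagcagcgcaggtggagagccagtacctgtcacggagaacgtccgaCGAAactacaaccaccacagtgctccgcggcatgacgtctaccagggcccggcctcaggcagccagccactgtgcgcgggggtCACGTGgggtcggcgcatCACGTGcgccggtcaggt
Scarb2: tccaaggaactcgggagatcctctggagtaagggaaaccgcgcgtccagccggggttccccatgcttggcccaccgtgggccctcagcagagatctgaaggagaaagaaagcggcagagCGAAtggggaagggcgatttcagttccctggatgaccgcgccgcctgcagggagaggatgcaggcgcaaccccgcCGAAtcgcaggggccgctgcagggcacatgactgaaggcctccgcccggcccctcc

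The RefSeq promoter table held 32 of the 38 genes, as windows of 250 bases before and 50 after the start. Ctsb, Npc1, Atp6v1b2, Atp6v1c1, Atp6v1g1 and Atp6v1h had no entry. CACGTG, which reads the same on both strands, was found in 14 of the 32 windows (43.8%). Among the windows of 17274 protein-coding genes 8.02% held it, and among the 8853 occupied genes with a window 10.7% did. The carriers were Ctsd, Ctsl, Ctsf, Gla, Gaa, Glb1, Naglu, Sgsh, Lamp1, Mcoln1, Atp6v0b, Atp6v0d1, Atp6v0e and Atp6v1a. Both kinds of gene had it, 4 of 11 V-ATPase windows and 10 of 21 of the rest. In the 250 bases before the start alone these counts were 2 of 11 and 10 of 21, since the matches of Atp6v0d1 and Atp6v0e reach or lie past the start. The longer GTCACGTG, which contains CACGTG and was searched on both strands, was in 9 of 32 windows (28.1%), against 2.89% of all protein-coding genes. In the Lamp1 promoter the 4 matches began 61, 45, 28 and 15 bases before the start, and those of Mcoln1 began 71 and 45 bases before it. The matches of Atp6v0b lay 36 and 18 bases before the start, that of Glb1 48 bases before it, and those of Ctsd 245 and 98 bases before it.

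TTCG, searched on both strands, was in 18 of the 32 windows (56.2%). This lay between the 49.4% of all protein-coding genes and the 61.0% of occupied ones. TTCGG, which contains TTCG, was in 9 (28.1%), against 22.1% and 28.8%. Of the other promoter words, GGGCGG, the core of a GC box, was in 23 windows (71.9%) against 71.1% of occupied genes, and CCGGAAG, an ETS-type word, was in 6 (18.8%) against 17.1%. GCATGCG, a word within the NRF1 motif, was in 5 (15.6%) against 6.74%, and TGACGTCA, the CRE, was in 1 (3.12%) against 3.4%. The median GC content of the windows was 59.7%, between 63.3% for occupied and 49.0% for unoccupied protein-coding genes. A match describes letters in a window and shows no bound factor.

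Occupied genes with CACGTG in the window had median folds of 21.7 and 15.2 in replicates 1 and 2 (n = 13), and those without it 14.8 and 8.37 (n = 16). The ranges overlapped almost fully, from 8.64 to 27.5 with the word and from 9.90 to 25.2 without it in replicate 1. For TTCG the order was the other way: the medians were 16.2 and 10.2 with it (n = 17) and 17.8 and 13.8 without it (n = 12). For Atp6v0b, Tpp1 and Atp6ap1 the fold was that of a peak at the far end, not at the promoter searched. Atp6v0b, counted with CACGTG, entered at 26.2 and 29.6, where the peak at its start had 20.8 and 12.9. Tpp1 and Atp6ap1 were counted without CACGTG. At the start end, the peaks of Gla and Atp6v1a, counted with CACGTG, did not reach the listed start in either replicate. The same held for Gusb, Atp6v0a1 and Atp6v1d, counted without it. The Atp6v1a summits, with folds of 25.2 and 26.5, were 693 bp before its listed start in both replicates. Neither contrast was tested, since the genes were chosen with these peaks known and are not replicates.

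The peak summits lay mostly past the start, not over the printed bases. Of 29 occupied genes with a listed start, the summit was downstream of it in 23 in replicate 1 and 22 in replicate 2, with median positions of 137 and 113 bp past the start. Over all occupied genes with a listed start the summit was downstream in 69% and 67.4%, and the medians were 101 and 95 bp. The start itself lay under the peak in 21 and 16 genes, and only 4 and 5 summits fell in the window that was searched for words. Shares over all genes are not given here for these counts. In 26 of these 29 genes the occupied end used here was the one that holds the start. Tpp1 was occupied at the far end alone. Atp6v0b and Atp6ap1 were occupied at both ends, and the far end was used because the lower of its replicates' folds was higher. Counting only summits within 1 kb of a listed start, 28 of 32 genes were occupied, against 54.0% of protein-coding genes. Ctsl, Cln3 and Atp6v1f were again not occupied by this rule, nor was Tpp1.

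**Figure D2:**
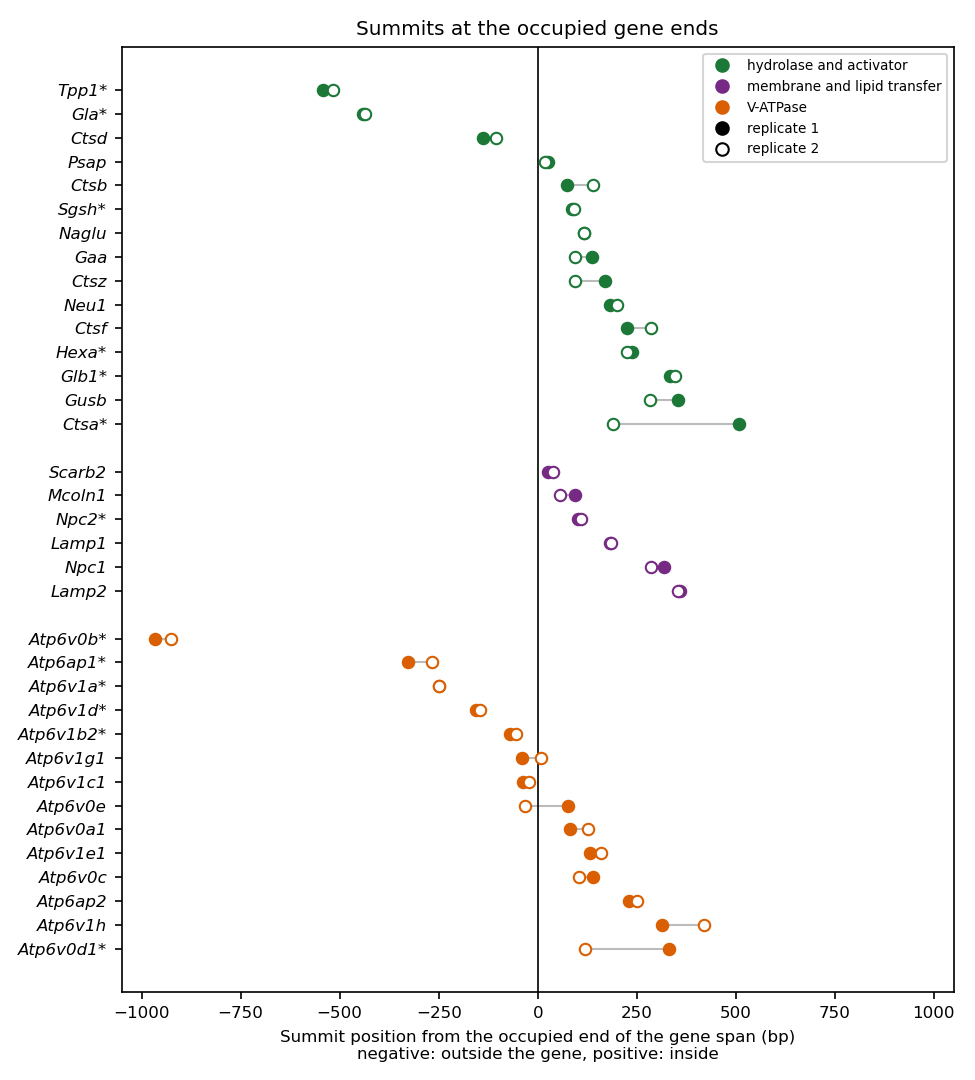
Position of each summit in base pairs from the occupied end of the gene span (horizontal axis; negative values lie outside the gene), filled for replicate 1 and open for replicate 2, coloured by role. In 31 of 35 genes the replicates' summits lie within 100 bp, against 79.0% of all occupied genes. In each replicate 7 of 14 V-ATPase summits are outside the span, where 76.9% and 76.3% of all occupied genes had the summit inside in replicates 1 and 2. An asterisk marks a peak near a second protein-coding gene.

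Throughout, the first of a pair of folds, distances or fragment counts is from replicate 1 and the second from replicate 2. Cathepsins are the proteases of the lysosome, and 5 of the 6 listed here were occupied. Ctsb, a cysteine protease, had folds of 17.98 and 21.6 in replicates 1 and 2, with summits 75 and 140 bp inside the gene on chromosome 14. Ctsz, a carboxypeptidase of the same class, was the most even of these with 18.3 and 18.2. Ctsf, another cysteine protease, had 18.5 and 10.6. These 3 genes were above the replicate 1 median of occupied genes, while Ctsf was below it in replicate 2.

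Ctsd encodes the main aspartic protease, and its folds were 8.64 and 13.6. Its peak (chr7:142387619-142388183 in replicate 1) was not small: 48 fragments stood at the replicate 1 summit over a background of 4.67, and 42 over 2.17 in replicate 2. The lower fold of replicate 1 came with a background above that library's lowest value of 2.13, whose part in it was not tested. Ctsa, whose protein also shields other lysosomal enzymes from breakdown, had 16.2 and 6.83, with the highest summits 320 bp apart, the widest gap of the set, although a second replicate 2 summit of fold 6.07 lay closer.

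Ctsl, a cysteine protease of broad range, was not occupied. The replicate 1 list has a peak 378 bp inside its start end, of fold 5.05, and the nearest replicate 2 summit was 33802 bp away.

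Glycan-cleaving enzymes held both the highest and the lowest replicate 2 fold of the hydrolases, Glb1 and Neu1. Glb1, the beta-galactosidase used as a marker of senescence, had folds of 27.5 and 23.1 (chr9:114401009-114401764). Hexa, a subunit of beta-hexosaminidase lost in Tay-Sachs disease, had 24.6 and 17.1. In replicate 1 Glb1 was above 24.58, the bound of the top 10% of occupied genes, and Hexa stood at it.

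Heparan sulfate is taken apart by a chain of enzymes, of which Naglu and Sgsh are lost in forms of Sanfilippo disease. Naglu had folds of 21.7 and 17.6, and Sgsh had 22.0 and 15.2. Gusb, the beta-glucuronidase, had 16.3 and 13.7. All 3 had summits inside the gene, between 87 and 354 bp from its end.

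Gaa breaks down glycogen in the lysosome and is lost in Pompe disease, a muscle disorder. Its folds were 17.3 and 9.86 (chr11:119267938-119268384), the first above and the second below the median of occupied genes. Gla, the alpha-galactosidase lost in Fabry disease, had 11.5 and 7.59. Neu1, the sialidase, had 17.2 and 6.18, the lowest replicate 2 value of the hydrolases, from 16 fragments at the summit (95% exact Poisson interval 9.15 to 26.0) against 53 (39.7 to 69.3) in replicate 1. Such intervals cover counting error alone.

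Tpp1, a tripeptidyl peptidase lost in a form of Batten disease, had folds of 14.98 and 17.7, but at its finish end only. The summits lay 541 and 516 bp beyond the gene and 105 and 80 bp from the start end of Taf10, a subunit of TFIID. The end of Tpp1 that holds its start had no summit in either replicate. Psap, the precursor of the saposins that present lipids to hydrolases, was occupied at both ends, with 18.2 and 10.2 at the start and 11.5 and 5.31 beyond the finish.

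Among the membrane proteins Lamp1 stood first. Lamp1 encodes the most abundant glycoprotein of the lysosomal membrane, and its peak (chr8:13159010-13159877) had folds of 27.1 and 29.6. Its summits were 182 and 186 bp inside the gene, with 84 fragments (95% exact Poisson interval 67.0 to 104) and 77 (60.8 to 96.2). By the lower of the replicates' folds, 98.27% of occupied genes ranked below it. Lamp2, its relative needed for fusion of autophagosomes, was at the other end with 9.90 and 5.31, and its peak is also near the start of the noncoding RNA LOC115489130.

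Mcoln1, the calcium channel TRPML1, had folds of 23.3 and 17.5. Npc1, which hands cholesterol out of the lysosome, had 20.1 and 18.96. Npc2, its soluble partner, had 10.1 and 6.47, so the peak of Npc1 was the higher of these partners in both replicates.

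Scarb2, a membrane receptor of the lysosome, had the largest difference in fold between replicates, from a fold of 14.6 in the first library to 31.9 in the second. The fragments at the summit were nearly equal, 82 and 83, and the background was 4.67 and 1.64. Its fold in replicate 1 was below the median of occupied genes and its fold in replicate 2 was the highest of the 35.

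Cln3, a membrane protein lost in juvenile Batten disease, had no summit within 1 kb of its ends in any list. A replicate 1 peak of fold 9.90 lay 2896 bp inside the gene, 315 bp from another start listed for it, and replicate 2 had none there.

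The V-ATPase genes had lower median folds than the others, a difference that was not tested. The median fold of the 14 occupied subunit genes was 13.56 in replicate 1 and 9.637 in replicate 2, against 17.98 and 15.17 for the other 21. The fragments at the summit had medians of 47.5 and 28.5 against 62 and 44. This did not hold in every sector: the 7 occupied V1 genes had medians of 65 and 53 fragments, above those of the other 21. The V0 genes had 49 and 24, and the accessory genes 40 and 21.5. In each replicate 4 of the 14 were above the median of all occupied genes. The ranges overlapped, from 8.76 to 26.2 for the V-ATPase and from 8.64 to 27.5 for the rest in replicate 1. Taking the peak at the start end where it was known left the V-ATPase medians at 13.89 and 9.637 and those of the rest at 18.09 and 14.41.

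All 5 genes of the membrane-bound V0 sector were occupied. Atp6v0b, the subunit c″ of the proton ring, had folds of 26.2 and 29.6 in replicates 1 and 2, at a peak (chr4:117882738-117883703) that lay 966 and 926 bp beyond its finish. That peak was 155 and 115 bp from the start end of B4galt2, a galactosyltransferase gene. At its own start Atp6v0b had a second peak with 20.8 and 12.9, so it was occupied by either.

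Atp6v0c, the main subunit of the proton ring, had folds of 25.2 and 14.4 at its start end and a further peak of 15.8 and 8.47 at its finish. Atp6v0d1, which joins the ring to the central stalk, had 15.96 and 9.48. Atp6v0a1, which forms the proton path beside the ring, had 10.9 and 7.90. Its listed start lay deeper in the span, and the summits were 895 and 849 bp before that start.

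Atp6v0e, a small membrane subunit, had the lowest replicate 2 fold of all, at a fold of 10.4 in one library and 2.89 in the other. The replicate 2 summit held 16 fragments (95% exact Poisson interval 9.15 to 26.0) over a background of 4.87, and its −log10 q was 2.42. Only 0.1523% of occupied genes had a smaller lower fold, so its place among the occupied genes rests on a weak peak.

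In the V1 sector 7 of 8 genes were occupied. Atp6v1a, the catalytic subunit, had folds of 25.2 and 26.5 at a peak (chr16:44139667-44140693) centred 250 bp outside the gene in both replicates. Atp6v1h, a regulatory subunit, had 21.1 and 20.5 with summits 314 and 421 bp inside. These 2 genes were above the medians of occupied genes in both replicates.

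Atp6v1b2, the broadly expressed non-catalytic partner of Atp6v1a in the hexamer, had folds of 10.6 and 15.9, and Atp6v1c1, which clasps V1 to V0, had 8.76 and 13.4. Both had the lower value in replicate 1, where the background was raised: 66 fragments over 5.34 for Atp6v1b2 and 78 over 8.01 for Atp6v1c1. In replicate 2 they had 58 over 2.71 and 56 over 3.25. Measured in fragments, Atp6v1c1 in replicate 1 equalled Atp6v1a, which also had 78.

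The remaining stalk genes were lower in replicate 2. Atp6v1d, of the central rotor, had folds of 11.8 and 4.39. Atp6v1e1, of the peripheral stalk, had 13.4 and 4.87. Atp6v1g1, its partner in the stalk, had 15.0 and 9.79, with summits 39 bp outside and 8 bp inside the gene. Atp6v1f, a small subunit of the rotor, was not occupied: a replicate 1 peak of fold 6.07 lay 471 bp inside its start end, and the nearest replicate 2 summit was 3553 bp away.

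The accessory subunits were both occupied. Atp6ap1, which guides assembly of the pump, had folds of 12.5 and 8.84 beyond its finish. At its own start end it had 14.0 and 6.45. Atp6ap2, the prorenin receptor, had 13.7 and 5.83, with summits 231 and 250 bp inside the gene.

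**Figure D3:**
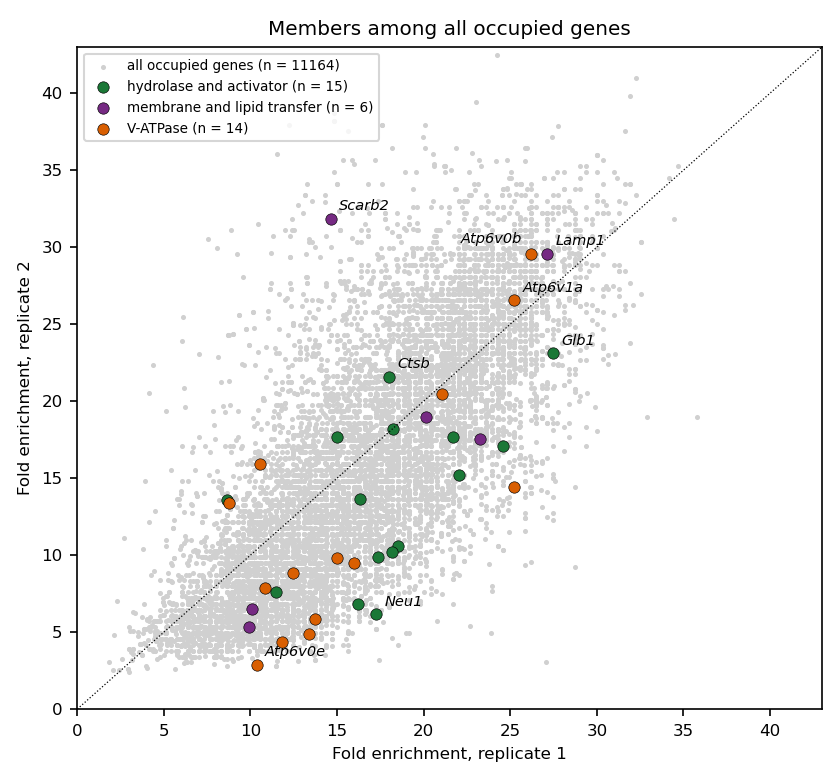
Fold enrichment in replicate 1 (horizontal axis) and replicate 2 (vertical axis) for all 11164 occupied genes in grey and for the 35 lysosomal genes by role; the dotted line marks equal folds. Replicate 2 was higher in 9 of the 35 genes; Scarb2 lies far above the line, and Atp6v0e has the lowest replicate 2 value of the set, 2.89.

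Replicate 2 gave the higher fold in 9 of the 35 genes (25.7%), against 40.7% of all occupied genes. These were Ctsb, Ctsd, Tpp1, Lamp1, Scarb2, Atp6v0b, Atp6v1a, Atp6v1b2 and Atp6v1c1. In 6 of the 9 the replicate 1 background was above its lowest value. It was at that lowest value in 21 of the 35 genes and in 57.1% of all occupied genes. The part of background in the split was not tested. The summits of the replicates were a median of 29 bp apart.

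A second protein-coding gene lay within 1 kb of the summits at 13 of the 35 genes (37.1%), against 2555 of all occupied genes (22.9%). A peak there cannot be assigned to either gene from these files. In 9 of the 13 the neighbour's end was closer to both summits than that of the lysosomal gene: they include Hexa, Gla, Glb1, Sgsh, Tpp1, Atp6v0b, Atp6v1a and Atp6v1d.

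By the listed strands 5 of the 13 pairs run head to head from the shared peak. Atp6v1a faces Naa50, an acetyltransferase gene whose end was 161 bp from the summit in both replicates, with the summit inside Naa50. Atp6v1d faces Eif2s1, the alpha subunit of the translation factor eIF2, at 93 and 81 bp, and Gla faces Hnrnph2, an RNA-binding protein gene, at 268 and 263 bp. In these 3 pairs the summit was in the neighbour and not in the lysosomal gene. Npc2 faces Isca2, an iron-sulfur cluster gene, at 220 and 226 bp, and its summits were inside Npc2. Ctsa and Neurl2 overlap at their starts, and both summits lay in both genes.

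In the other pairs the lower-coordinate ends of the Glb1 and Tmppe spans lie close together, at the start of Glb1. The summits were inside both spans, 334 and 346 bp from that end of Glb1 and 317 and 329 bp from that of Tmppe. Slc26a11, an anion transporter gene, met Sgsh at nearly the same base, with 86 and 90 bp to its end against 87 and 91. Tmem202 had an end of its span 104 and 91 bp from the summits of Hexa. Slc18a1, a monoamine transporter gene, had one 573 and 558 bp from those of Atp6v1b2. Agrp, a neuropeptide gene, was the farthest at 963 and 751 bp from the summits of Atp6v0d1. Noncoding genes lay within reach at 4 genes: LOC115489130 at Lamp2, Gm12841 at Atp6v0b, Gm38250 at Atp6v0d1 and Gm38592 at Atp6v1g1.

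**Figure D4:**
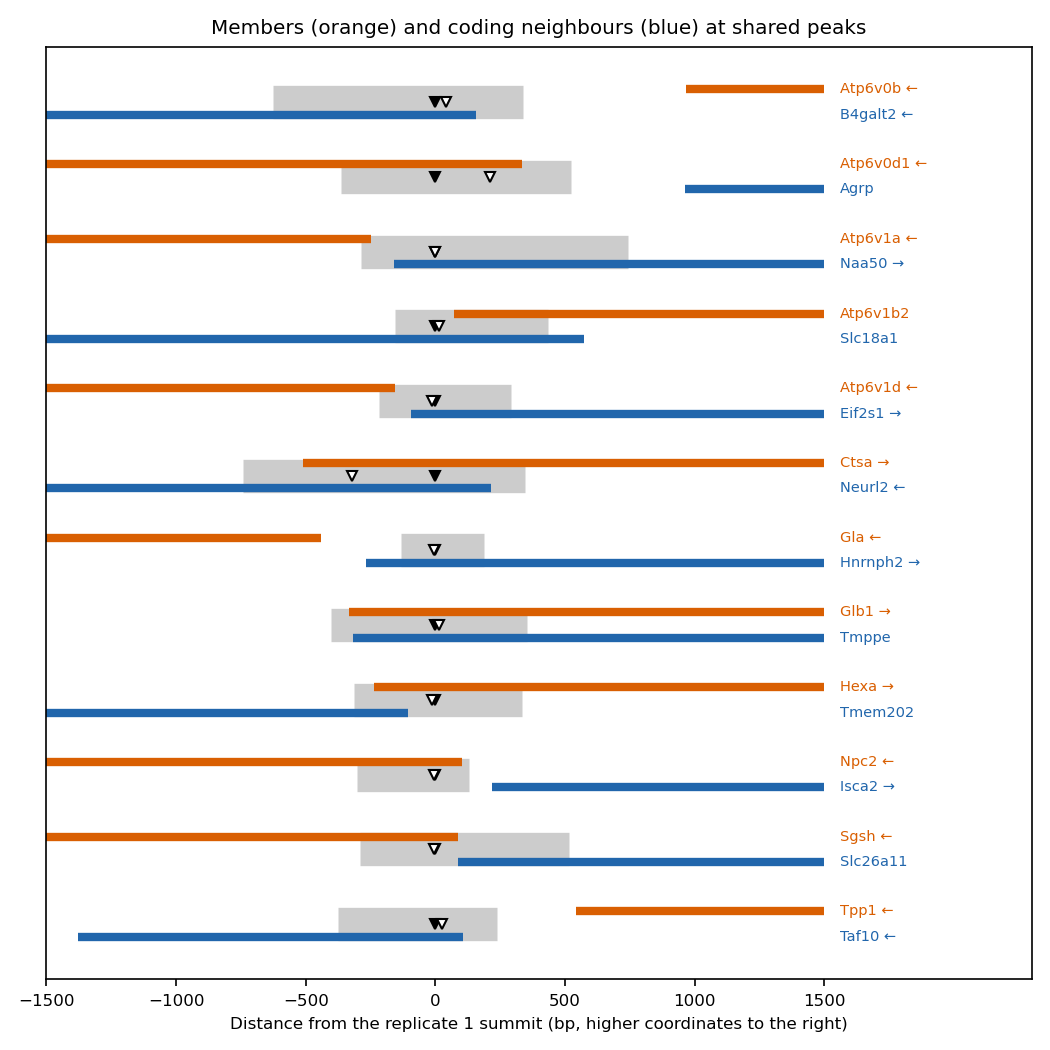
Gene spans of 12 lysosomal genes (orange) and their protein-coding neighbours (blue) by distance from the replicate 1 summit (horizontal axis, bp); grey boxes are replicate 1 peaks, filled and open triangles the summits of replicates 1 and 2, and arrows the strand where one is listed. At Atp6v1a, Atp6v1d and Gla the summits lie in the neighbour, and at Tpp1 and Atp6v0b they lie beyond the finish of the gene.

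Peaks deeper than 1 kb from both ends had lower median folds than the end peaks used above. The end peaks were each the highest summit at an end called in both replicates, so the sets were not picked alike. Replicate 1 had 49 deep peaks in 17 of the 38 genes with a median fold of 5.75, and replicate 2 had 9 in 7 genes with a median of 5.29. Over all peaks of each list the medians were 6.07 and 8.34, and no count of deep peaks over all genes is given here. Only 6 deep peaks were found in both within 200 bp, in 5 genes. Psap held a pair of them with folds of 10.6 and 13.3 at the first and 9.68 and 6.07 at the other. Mcoln1 had 8.94 and 5.31, Atp6v0a1 8.99 and 4.93, Neu1 7.66 and 4.17, and Atp6v1a 4.47 and 5.69.

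In a wider list of 88 other lysosome genes 55 (62.5%) were occupied, beside 51.6% of all protein-coding genes. The count was 20 of 34 for other hydrolases and activators, 15 of 22 for membrane proteins and transporters, and 11 of 14 for genes that sort proteins to the lysosome. For other V-ATPase isoforms it was 5 of 10, and for V-ATPase assembly 4 of 8. Their median folds, 18.2 and 13.27, were close to those of the 38 genes, and the lists were not tested against each other. CACGTG was in 10 of 67 windows (14.9%) of this list.

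Among the highest of the other hydrolases was Galc, which degrades the myelin lipid galactosylceramide, with folds of 26.2 and 27.7. Those not occupied include Ctsc, Ctsk, Ctss, Arsa, Asah1, Ids, Ppt1, Acp2, Acp5, Scpep1 and Grn. Ctsk of osteoclasts and Ctss of antigen-presenting cells are proteases of particular cell types, and whether cell type goes with occupancy was not tested.

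Among membrane proteins the highest were Tmem192, with folds of 27.5 and 33.4, and Tmem106b, with 23.3 and 32.6, and those not occupied were Cd63, Slc17a5, Slc38a9, Lmbrd1, Tpcn2, Cd68 and Lamp3. Among sorting genes Gnptab, which makes the mannose 6-phosphate tag, had 27.7 and 34.9, and Gga2, a Golgi adaptor, had 23.3 and 25.4. M6pr, Vps11 and Vps18 were not occupied. Of the V-ATPase isoforms Atp6v1g2 had 23.0 and 21.2 and Atp6v0a2 had 22.0 and 16.5, while Atp6v0a4, Atp6v0d2, Atp6v1b1, Atp6v1e2 and Atp6v1g3 were not occupied. Several of these last are known from kidney, bone or testis. The 5 of 10 isoforms that were occupied belong to the same list, and tissue was not tested against occupancy. Of the assembly genes Dmxl2 had 25.5 and 24.7 and Rogdi 20.2 and 19.6, and Vma21, Ccdc115, Atp6ap1l and Wdr7 were not occupied.

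**Figure D5:**
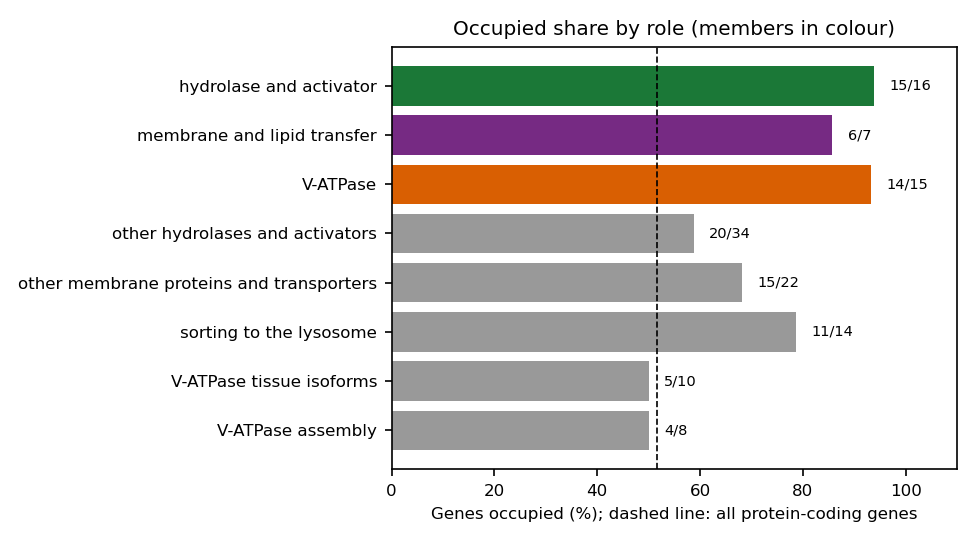
Share of genes occupied (horizontal axis, percent) by role, with the count beside each bar, for the 38 genes in colour and 88 other lysosome genes in grey; the dashed line is the 51.6% of all protein-coding genes. The coloured bars end between 85.7% and 93.8%, and both grey V-ATPase bars, at 5 of 10 and 4 of 8 genes, end just below the line.

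A higher threshold on the fold kept fewer of the 38 genes. With a fold of at least 10 asked of both replicates, 19 of 38 were occupied, against 35.8% of all protein-coding genes. By role 10 of 16 hydrolases and activators, 4 of 7 membrane and lipid-transfer proteins and 5 of 15 V-ATPase genes were left. The V-ATPase genes left were Atp6v0b, Atp6v0c, Atp6v1a, Atp6v1b2 and Atp6v1h. With no peak list of a control, signal common to promoters and binding by Deaf1 cannot be told apart.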

How the data were processed

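Deaf1 was mapped by ChIP-seq in 2 libraries of C2C12 myocytes, with 2 input libraries whose data were not analysed here. Per the submitters' processing notes BWA, MACS2 and mm10 were used; their versions, settings and the caller's control were not given in the sources used here. Each ChIP library has its own list deposited by the authors, so peaks were called per sample. In the deposited lists fold enrichment is a ratio at the summit, with 1 added to both the fragments and the background. Each deposited peak also has a −log10 p-value, and a q-value on the same −log10 scale. The deposited score was not used as a measure. Peak positions, as the authors gave them, were converted to count from 1.

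Replicate 1 had 65606 peaks and replicate 2 had 26503, with median folds of 6.07 and 8.34. Read depth is unknown. The whole number of fragments at each summit and the background were recovered from its fold and p-value by a Poisson model, at a largest misfit of 4.07e-05 in −log10 p. The solver and the occupancy rule were tested on simulated data. The lowest backgrounds were 2.13 and 1.64 fragments. Intervals at 95% cover counting error only. The labels number the replicates without saying that the cultures were separate, so their spread may be technical.

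Gene spans and promoter windows came from RefSeq tables of GRCm38.p6, the assembly behind mm10. The highest summit at the occupied end was used for each gene. A neighbour was a gene with an end within 1 kb of that summit in both replicates. Among other lysosome genes the text names, per role, the 2 occupied genes with the highest lower fold and every gene not occupied; a few genes that this rule or the neighbour rule would name are not reported here. Both gene lists were chosen with earlier results of these data known, so counts are descriptions set beside all protein-coding genes, with no test. Alternatives changed the window, the fold or q threshold, the replicates and the end rule. Scripts used Python 3.11.15, numpy 2.4.6, pandas 2.3.3, scipy 1.17.1 and matplotlib 3.10.9.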

Additional observations from a re-analysis of the deposited data

How the results depend on the processing

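A minimum fold of 10, an alternative chosen after seeing the data, moved 3 counts by more than 1.5 times: occupied genes among the 38 fell from 35 to 19, V-ATPase genes from 14 to 5, and other lysosome genes from 55 to 33. The background fell from 51.6% to 35.8% with it. The other alternatives left between 32 and 37 of the 38 genes occupied, and the window around listed starts left 28 of 32, without Tpp1. A window of 500 bp left 33 (without Ctsa and Tpp1) and one of 5 kb gave 37 (with Cln3 and Atp6v1f). A minimum fold of 5 left 32, without Atp6v0e, Atp6v1d and Atp6v1e1. A minimum −log10 q of 5 left 33, without Atp6v0e and Atp6v1d. Asking for summits within 200 bp of each other left 34, without Atp6v0d1. Using replicate 1 alone gave 37, with Ctsl and Atp6v1f, against 61.8% of protein-coding genes, and replicate 2 alone gave 35 against 52.3%. Searching only the 250 bases before the start, also chosen after seeing the data, found CACGTG in 12 of 32 promoters (2 of 11 for the V-ATPase), against 6.77% of protein-coding genes. No paired analysis was possible because the inputs that share replicate numbers with the ChIP libraries gave no peak list here. With 2 libraries of 1 condition, no error of a count over genes can be given.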
